A study of Monodelphis domestica and Mus musculus with 2 samples.

Results

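The 8 genes described here, Sst, Npy, Vip, Cck, Tac1, Cort, Pdyn and Adcyap1, encode precursors of neuropeptides of cortical interneurons and pyramidal cells, and were chosen by symbol, without regard to case. All 8 were found among the 61317 features of the mouse, and 6 among the 30613 features of the opossum. Tac1 and Cort were not analysed here in the opossum. The study set the primary visual cortex (V1) of a marsupial beside that of a placental mammal. Stereo-seq was used, in which polyadenylated RNA from a tissue section is captured on a chip of barcoded spots, and the unique molecular identifiers (UMIs) are summed over cells segmented on an image of the section. The opossum section came from 1 male Monodelphis domestica of about 6 months, and the mouse section from 1 wild-type male C57BL/6J of about P40, both untreated. With 1 animal and 1 section per species there was no test, and the V1 regions outlined in each section, 3 in the opossum and 4 in the mouse, are not biological replicates. The paper embedded several coronal slices of a brain together, and in each species the regions came from more than 1 of these slices.

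Neuropeptides are made as longer precursors, cut and modified on their way into dense-core vesicles, and released to act on G protein-coupled receptors at some distance. In the cortex, somatostatin (Sst), vasoactive intestinal peptide (Vip) and neuropeptide Y (Npy) are known from GABAergic interneurons. Somatostatin cells are known to inhibit dendrites of pyramidal cells, and Vip cells to inhibit other interneurons. Cholecystokinin (Cck) is known from a set of interneurons and also, as mRNA, from pyramidal cells.

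V1 held 4806 opossum cells with 6933475 UMIs and 9127 mouse cells with 12522687 UMIs that passed the filter of 50 genes and 100 UMIs. The median cell had 1326 UMIs in the opossum, with medians of 1048 to 1503 in the 3 regions, and 1305 in the mouse, with 1259 to 1343 in the 4 regions. The 2 sections shared 0 cell names. Levels are given as UMIs of a gene per 10000 UMIs, with 95% Poisson intervals (exact) in brackets. Those of shares are 95% Clopper-Pearson intervals, also exact, and neither kind covers more than counting error. Classes and subclasses are the deposited labels, which were assigned from expression, these genes included, so levels by label are a description. The genome and its annotation differed between the species, so their levels stand side by side only.

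The class labels were set apart by their markers to different degrees. The summed level of Gad1, Gad2 and Slc32a1 was 24.1 in opossum cells labelled GABAergic, 5.17 in glutamatergic and 5.83 in non-neuronal cells. In the mouse it was 7.89, 3.19 and 3.50. The glutamatergic markers Slc17a7, Slc17a6, Sv2b and Neurod6, the first of which was not analysed here in the opossum, summed to 3.35, 6.71 and 4.44 in opossum GABAergic, glutamatergic and non-neuronal cells, and to 13.6, 16.4 and 16.2 in those of the mouse. By these markers the mouse glutamatergic label was hardly higher than the non-neuronal one. None of the markers found was at 0 in V1, and Pvalb, Grin3a and Pecam1 also were not analysed here in the opossum. Class and subclass labels also disagreed, since 83 of the 171 opossum cells and 24 of the 169 mouse cells of the subclass Sst carried the class glutamatergic. So did 19 of the 38 opossum cells and 0 of the 25 mouse cells of the subclass Vip. In these 38 opossum cells the GABAergic markers summed to 7.29 and the glutamatergic markers to 6.69, near the levels of glutamatergic cells.

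Sst and Cort encode related peptides, and the last coding bases of their mouse genes show how alike these are. Both stretches run 45 bases, 5′ to 3′, on the minus strand of GRCm39, and 34 bases, in capitals, are identical at the same place. That of Sst is the last before the stop codon, at chr16:23708482-23708526, and that of Cort stops 1 codon earlier, at chr4:149209727-149209771.
Sst: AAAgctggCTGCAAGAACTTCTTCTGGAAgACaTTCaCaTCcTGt
Cort: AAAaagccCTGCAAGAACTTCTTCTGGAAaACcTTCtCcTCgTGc
The letters come from GENCODE transcripts. The longest identical run lies in the middle and codes for the core that both peptides share. The opossum genome was not used here.

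Sst, whose peptide inhibits neurons and the release of many hormones, had 4023 UMIs in opossum V1, or 5.80 per 10000 (5.62 to 5.98), and 4911 in mouse V1, or 3.92 (3.81 to 4.03). The mouse gene lies at chr16:23707321-23711733, with 2 exons and no overlapping gene. In the opossum, the cells labelled Sst held 50.3 per 10000 (47.5 to 53.3), between 36.2 and 61.9 in the 3 regions. The next subclass was Endo, at 8.09 (6.10 to 10.5), followed by IT_B at 6.32 and Astro at 6.02, whose intervals overlapped. In the mouse, the cells labelled Sst held 12.3 (10.96 to 13.8), between 10.1 and 16.0 in the 4 regions, and Vip cells came next at 6.62 (4.15 to 10.0), from 25 cells. Labels were given in 3 successive rounds, and the level was 60.03, 52.5 and 29.5 by round in opossum Sst cells, and 16.9, 11.5 and 10.4 in those of the mouse. Sst cells stood apart from every other subclass in both species, while most neighbours further down had overlapping intervals. L2/3 was at 3.41 (3.15 to 3.69) and L4 at 3.53 (3.30 to 3.77) in the mouse, and IT_A was at 3.44 (3.21 to 3.69) in the opossum.

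Sst UMIs were found in every class. Cells labelled GABAergic held 18.4 per 10000 (17.2 to 19.5) in the opossum, 4.03 times (3.74 to 4.33) the level of glutamatergic cells, 4.56 (4.38 to 4.74). In the mouse the levels were 6.95 (6.35 to 7.59) and 3.58 (3.46 to 3.71), a ratio of 1.94 (1.76 to 2.14). Non-neuronal cells, which should lack Sst, held 5.67 (5.17 to 6.19) in the opossum and 3.87 (3.63 to 4.13) in the mouse, close to or above the glutamatergic cells. Glutamatergic cells carried 62.0% of all opossum and 63.5% of all mouse Sst UMIs. These cells held more of the UMIs of all genes in V1, 79.0% in the opossum and 69.6% in the mouse. At least 1 Sst UMI was found in 44.4% of opossum GABAergic cells and in 27.0% of non-neuronal cells, with median depths of 1596 and 1155 UMIs. After thinning to 300 UMIs the shares were 23.1% (18.7 to 28.1) and 12.6% (10.2 to 15.4), with 7 and 18 shallower cells left out. In the mouse they were 40.2% and 29.4%, at median depths of 1345 and 1245, and after thinning 13.8% (10.9 to 17.2) and 10.3% (8.94 to 11.8), with 6 and 37 left out. Set against this background in non-neuronal cells, the share was higher in GABAergic cells in the opossum, whereas the mouse intervals overlapped.

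Per the methods, the V1 regions began at the upper edge of layer 2/3, so their top lies below the surface of the cortex. Across the depth of these regions, cut into 10 bins of equal height from the top, opossum Sst formed a band. Its level was 0.942 (0.729 to 1.20) in the first bin, 9.67 in the fourth, 17.7 (16.7 to 18.7) in the fifth, 9.38 in the sixth and 2.43 in the ninth. It was higher again in the tenth, at 4.42 (3.97 to 4.91), with 7.24 in region 1, 1.70 in region 2 and 3.22 in region 3. All 3 regions had the band, with the peak in the sixth bin in region 1, at 15.7, and in the fifth in regions 2 and 3, at 20.6 and 21.3. Without region 1 the fourth bin was at 15.4 and the sixth at 5.57, and without region 2 the fourth was at 6.44. Mouse Sst varied less, between 2.82 (2.53 to 3.14) in the second bin and 5.35 (4.93 to 5.81) in the seventh. A bin of the tallest region was 77.35 µm high for the opossum and 77.45 µm for the mouse. Because a band in the middle leaves the mean depth where it is, the mean relative depth of opossum Sst UMIs, 0.501, was near that of all UMIs, 0.493.

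**Figure D1:**
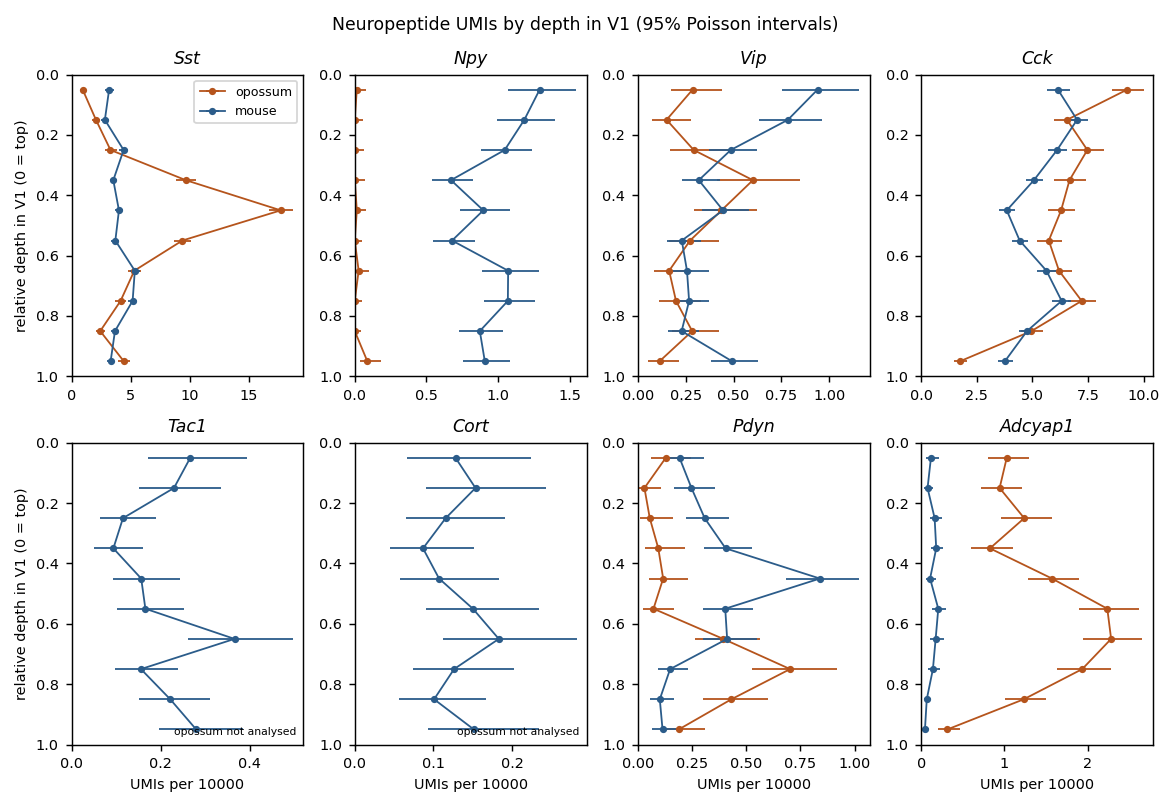
UMIs per 10000 (x axis) of each gene in 10 bins of relative depth in V1 (y axis, 0 at the top), for the opossum and the mouse, with Poisson intervals at 95%. Opossum Sst peaked at 17.7 in the fifth bin, opossum Pdyn in the eighth and mouse Pdyn in the fifth; the scales differ between genes.

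The band was present in every class. Between relative depths of 0.3 and 0.6, limits set after the profile had been seen, opossum Sst was at 12.4 (12.0 to 13.0), against 3.27 (3.11 to 3.43) in the rest of V1. The ratio was 2.97 (2.74 to 3.21) in glutamatergic cells, 4.29 (3.67 to 5.01) in GABAergic cells and 4.49 (3.71 to 5.45) in non-neuronal cells. Without the cells labelled Sst it was 2.90 (2.70 to 3.13), and without all cells of 5 or more Sst UMIs 2.55. By region it was 2.27, 5.51 and 5.83. In the mouse the same depths gave 0.934 (0.878 to 0.994) over all cells and 0.726 (0.593 to 0.885) in GABAergic cells. Mouse GABAergic cells instead had their highest Sst levels in the third bin, at 12.4 (9.50 to 15.9), and in the seventh, at 9.91 (8.09 to 12.0). Without region 1 the third bin was at 21.1, and without region 3 it was at 8.26, below the seventh at 10.2.

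**Figure D2:**
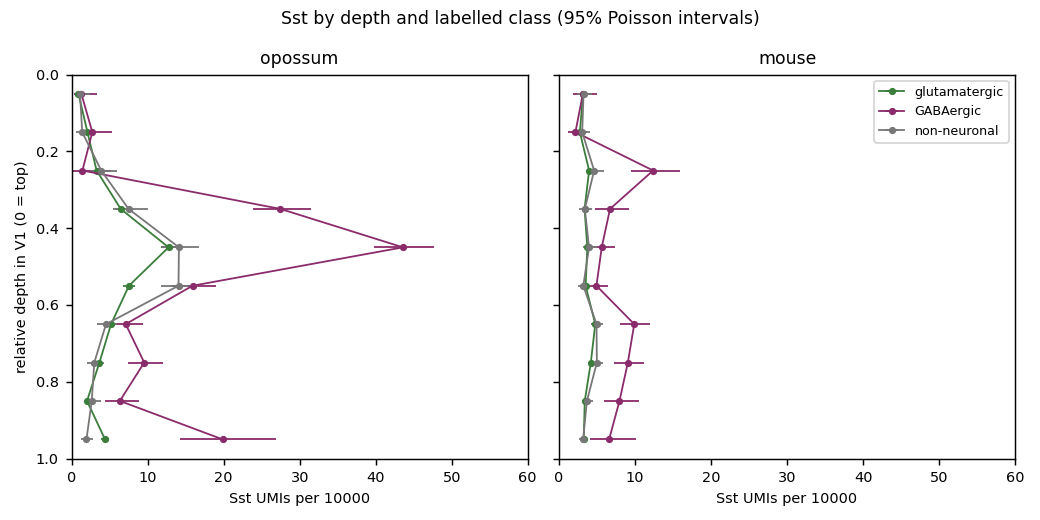
Sst UMIs per 10000 (x axis) by relative depth in V1 (y axis) in cells labelled glutamatergic, GABAergic and non-neuronal, with Poisson intervals at 95%. In the fifth bin of the opossum the levels were 12.8, 43.6 and 14.1; mouse glutamatergic and non-neuronal cells stayed between 2.75 and 4.99.

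Sst was more concentrated in few cells than Cck. The 48 opossum cells with the most Sst UMIs, 1% of V1 cells, held 29.6% of the gene's UMIs, and the highest cell had 79. In the mouse, the 91 top cells held 13.9%, and the highest had 25. For Cck the share was 8.14% in the opossum and 8.07% in the mouse. Mouse members with fewer UMIs than Sst had higher shares, from 26.8% for Npy to 76.7% for Adcyap1. In the opossum Adcyap1 had 18.1%, Pdyn 53.05% and Vip 64.0%. The share was not set against genes of a like level. At least 5 Sst UMIs were found in 174 opossum cells, 3.62% of all, and in 115 mouse cells, 1.26%. In the opossum 67 of the 174 were labelled Sst, 32 IT_A and 17 Astro, and by class 101 were glutamatergic, 50 GABAergic and 23 non-neuronal. That was 39.2% of the V1 cells labelled Sst, 2.005% of IT_A and 3.43% of Astro. By class it was 2.69% of glutamatergic, 15.1% of GABAergic and 3.40% of non-neuronal V1 cells. The median relative depth of the 174 cells was 0.477, with quartiles of 0.422 and 0.605, and in the mouse it was 0.661, with quartiles of 0.304 and 0.740. Gad1 and Gad2 together were at 8.13 in the 174 cells and 5.16 in the other opossum cells, and at 4.95 and 2.86 in the mouse.

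When cells with 5 or more Sst UMIs were linked at 25 µm or less, a step added after the data had been seen, 85 of the 174 opossum cells fell into 17 groups of 3 or more, and the rest made up 17 pairs and 55 single cells. The groups spanned 26.1 to 61.6 µm, and 14 of the 17 had a mean depth within the band. The median distance from a V1 cell to its nearest neighbour was 13.1 µm, and what this spacing alone would give was not computed. The group with the most UMIs held 157 in 5 cells of region 2, at a relative depth of 0.413, of which 1 cell had 79 UMIs and 4 were labelled Sst. Another, in region 1 at 0.945, held 137 UMIs in 6 cells that were all labelled glutamatergic. In 14 of the 17 groups the cells carried labels of more than 1 class, and 14 held a cell labelled Sst. The groups' own cells and those within 25 µm of them made up 5.12% of V1 cells and held 35.7% of Sst UMIs. That share is high in part by the choice of cells with 5 or more Sst UMIs. The level elsewhere was 3.90 (3.76 to 4.06). In the mouse 51 of the 115 cells were single, and there were 10 such groups with 40 cells. Of these groups 8 had labels of more than 1 class, and none had a mean depth from 0.3 to 0.6. Their own cells and those within 25 µm held 9.20% of Sst UMIs.

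**Figure D3:**
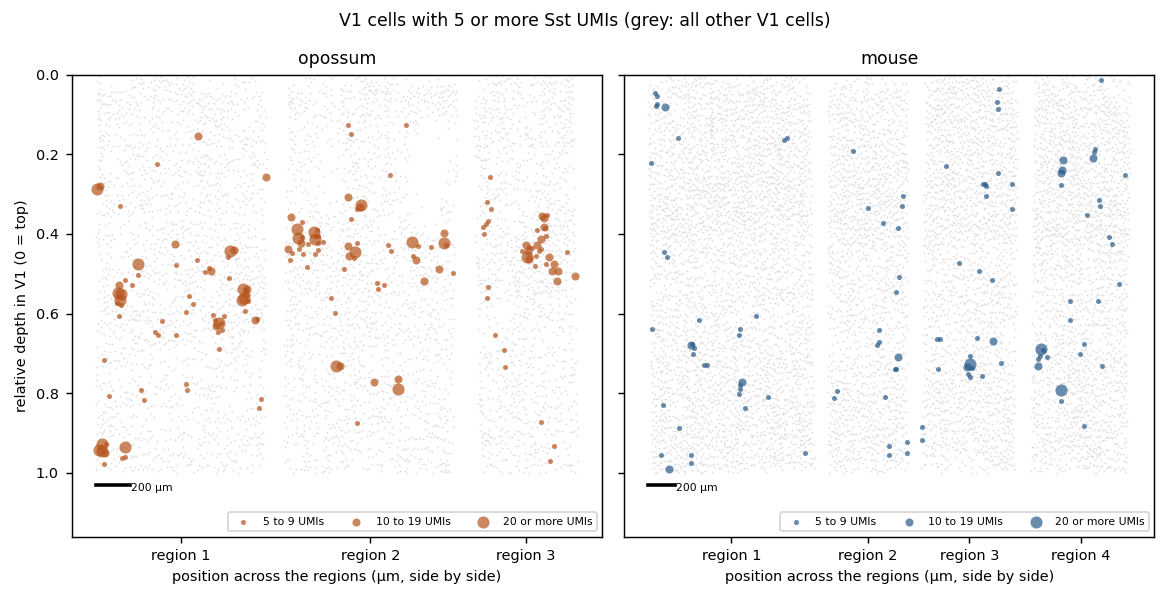
Each V1 region laid out by position across it (x axis, µm, scale bar 200 µm) and relative depth (y axis), with cells of 5 or more Sst UMIs as coloured dots sized by their UMIs and all other V1 cells in grey. Of the 174 opossum cells 119 lie between 0.3 and 0.6 and 85 lie in groups of 3 or more, against 22 and 40 of the 115 mouse cells.

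Over all depths, levels of Sst in the remaining cells were lower farther from the cells of 5 or more Sst UMIs in both species. In the opossum they were 8.19 (7.47 to 8.96) within 25 µm, 4.27 (3.91 to 4.65) at 25 to 50 µm, 2.25 (2.06 to 2.45) at 50 to 100 µm and 1.73 (1.57 to 1.90) farther away. Within the band alone the order held up to 100 µm, with 9.74 (8.73 to 10.8), 5.58 (4.999 to 6.203) and 3.02 (2.62 to 3.46), and 75 cells farther away had 4.50 (3.24 to 6.08). For mouse Sst the values were 6.03 (5.51 to 6.59), 3.92 (3.66 to 4.20), 3.16 (2.99 to 3.33) and 2.81 (2.67 to 2.96). At relative depths of 0.3 to 0.6 mouse Sst differed less with distance, and each interval overlapped the next. It was at 4.87 (3.93 to 5.955), 3.54 (3.07 to 4.055), 3.41 (3.11 to 3.74) and 3.31 (3.04 to 3.59). Cck was taken around 144 opossum and 112 mouse cells of 5 or more UMIs. At all depths, opossum Cck went from 7.20 (6.60 to 7.83) within 25 µm to 3.90 (3.59 to 4.22) beyond 100 µm. At relative depths of 0.3 to 0.6 it was at 7.72 (6.405 to 9.22) within 25 µm. Farther away it was at 5.28 (4.64 to 5.995), 5.31 (4.84 to 5.83) and 4.90 (4.23 to 5.63), which overlapped. Mouse Cck was not highest in the nearest cells. Its values were 5.14 (4.69 to 5.61), 5.28 (5.004 to 5.56), 4.83 (4.64 to 5.03) and 4.46 (4.25 to 4.67) from the nearest to the farthest cells, and at relative depths of 0.3 to 0.6 they went the other way, from 3.43 (2.67 to 4.33) within 25 µm to 4.37 (4.05 to 4.70) beyond 100 µm. The part of RNA spread between neighbouring cells and of segmentation in these values was not tested.

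**Figure D4:**
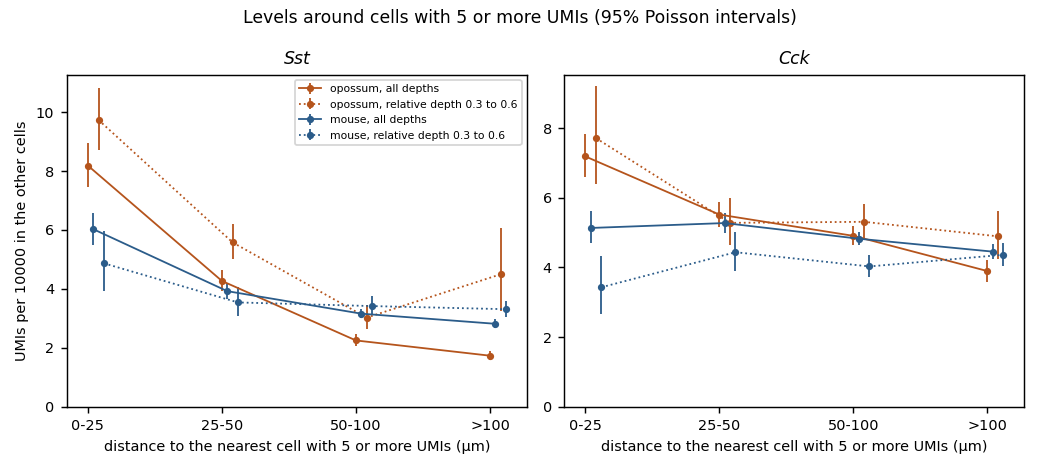
UMIs per 10000 of Sst and Cck (y axis) in the cells other than those with 5 or more UMIs of the gene, by distance to the nearest such cell (x axis, µm), at all depths and at relative depths of 0.3 to 0.6, with Poisson intervals at 95%. Opossum Sst was at 8.19 within 25 µm and 1.73 beyond 100 µm, and mouse Cck at 0.3 to 0.6 was at 3.43 and 4.37.

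Vip, whose peptide dilates vessels and marks interneurons that act on other interneurons, had 186 UMIs in opossum V1, or 0.268 per 10000 (0.231 to 0.310), and 533 in mouse V1, or 0.426 (0.390 to 0.463). The mouse gene lies at chr10:5589186-5599956. Cells labelled Vip had the highest level in both species. It was 3.04 (1.70 to 5.01) over 38 opossum cells, 19 of them of the class glutamatergic, and 9.02 (6.09 to 12.9) over 25 mouse cells. Only 15 opossum and 30 mouse UMIs lie behind these values, and 1 opossum region had none in its Vip cells. The second subclass was OPC in both, at 0.511 (0.205 to 1.052) and 0.682 (0.404 to 1.08), but each rested on 1 region, with 0.226 without opossum region 2 and 0.218 without mouse region 1. GABAergic cells held 0.491 (0.324 to 0.715) in the opossum against 0.237 (0.198 to 0.282) in glutamatergic cells, and 1.18 (0.943 to 1.46) against 0.372 (0.333 to 0.415) in the mouse. Non-neuronal cells held 0.338 (0.226 to 0.486) in the opossum, which overlapped the GABAergic cells, and 0.398 (0.323 to 0.486) in the mouse, which did not. In the mouse, Vip was highest in the top bin, 0.939 (0.753 to 1.157), and lower from the fourth, 0.318 (0.231 to 0.427), to the ninth, 0.228 (0.158 to 0.319). It was higher again in the tenth, at 0.492 (0.380 to 0.627). In the opossum the highest bin was the fourth, 0.601 (0.411 to 0.848), and its interval overlapped those of bins 1, 3, 5, 6 and 9. Of its 32 UMIs 20 came from region 2, without which it was at 0.3498.

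Npy, whose peptide dampens transmitter release, was nearly at the limit of detection in the opossum, with 11 UMIs in all of V1, of which 7 lay in the deepest bin, all in region 1, and 7 in cells labelled Sst, 6 of them in region 1. That is 0.0159 per 10000 (0.00792 to 0.0284), and Npy was left out of the opossum counts below. Outside V1 the opossum section held 143 Npy UMIs, 0.0184 (0.0155 to 0.0217). In the mouse, with the gene at chr6:49799026-49806489, V1 held 1195 UMIs, or 0.954 (0.901 to 1.01). The mouse cells labelled Lamp5 had 10.3 (7.48 to 13.9), from 43 UMIs in 35 cells, between 0 and 19.0 in the 4 regions. Vip cells followed at 3.31 (1.65 to 5.92) and Sst cells at 1.98 (1.46 to 2.62), overlapping each other, and without region 1 Sst cells were at 1.24. GABAergic cells held 2.24 (1.90 to 2.61), 2.59 times (2.17 to 3.08) the glutamatergic level of 0.864 (0.804 to 0.928), and non-neuronal cells held 0.923 (0.807 to 1.052). By depth, Npy was highest in the top bin, 1.29 (1.07 to 1.54), and lowest in the fourth, 0.672 (0.543 to 0.823), with 1.07 in the seventh and the eighth.

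Cort and Tac1 were sparse in the mouse. Cort, which encodes cortistatin, had 161 UMIs in V1, 0.129 per 10000 (0.110 to 0.150), with the gene at chr4:149209491-149211266. Its highest levels, 0.281 (0.103 to 0.613) in L5IT and 0.247 (0.0907 to 0.538) in Sst cells, rest on 6 UMIs each, 3 of them in region 4, without which they were 0.184 and 0.1601, and overlapped those of most subclasses, and the intervals of all 10 depth bins overlapped. Tac1, which encodes substance P and neurokinin A, had 251 UMIs, 0.2004 (0.176 to 0.227), with the gene at chr6:7554120-7565834. Pvalb cells were highest, 0.405 (0.202 to 0.724), but 10 of their 11 UMIs came from region 1, at 0.792, and the other regions had 0, 0 and 0.174. Without region 1 the Pvalb level was 0.0686 (0.00174 to 0.382). L4 held 0.104 (0.0678 to 0.152). The Tac1 level was 0.380 (0.2503 to 0.553) in GABAergic, 0.168 (0.142 to 0.197) in glutamatergic and 0.213 (0.159 to 0.280) in non-neuronal cells. By depth it was highest in the seventh bin, 0.366 (0.262 to 0.499), and lowest in the fourth, 0.0940 (0.05002 to 0.161), which was 0.0483 without region 1.

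Cck, whose peptide is known to excite neurons through the receptor Cckbr, was found in 43.5% of opossum and 40.1% of mouse V1 cells, the most widespread of the members, at 6.09 per 10000 (5.91 to 6.28) and 5.26 (5.13 to 5.39). The mouse gene lies at chr9:121315695-121324863 and overlaps 2 lncRNAs on the opposite strand. In the opossum, the cells labelled Lamp5 had 25.6 (18.7 to 34.3), from 15 cells, and Vip cells 15.8 (12.5 to 19.7), from 38. IT_C at 7.30 (6.50 to 8.17) and IT_A at 7.18 (6.84 to 7.53) did not differ beyond their intervals, and L6CT was lowest at 2.85 (2.53 to 3.20). In the mouse the labels differed less. L6IT was highest at 7.01 (6.38 to 7.68), L2/3 was at 5.94 (5.60 to 6.30), L6CT at 4.23 (3.95 to 4.52) and L5PT at 3.75 (3.23 to 4.32), while Lamp5 at 4.09 (2.38 to 6.54) and Vip at 5.41 (3.21 to 8.56) were not above the rest, and were 2.11 without region 4 and 2.90 without region 1. Cck differed little between classes, with a GABAergic to glutamatergic ratio of 1.156 (1.038 to 1.28) in the opossum and 0.881 (0.786 to 0.985) in the mouse.

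By depth, opossum Cck was highest in the top bin, 9.25 (8.55 to 9.99), lay between 5.73 (5.19 to 6.33) in the sixth and 7.47 (6.76 to 8.23) in the third from the second bin to the eighth, which was at 7.21 (6.62 to 7.84), and was lowest at the bottom, 1.75 (1.47 to 2.06). Mouse Cck was at 7.004 (6.53 to 7.50) in the second bin, 3.85 (3.51 to 4.21) in the fifth and 6.31 (5.89 to 6.75) in the eighth. Its UMIs were spread, with 8.14% in the top 1% of opossum cells and 8.07% in that of mouse cells.

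Pdyn, the precursor of the dynorphins, which act on kappa opioid receptors, lay at different depths and in different labels in the 2 sections. It had 164 UMIs in opossum V1, 0.237 per 10000 (0.202 to 0.276), and 391 in mouse V1, 0.312 (0.282 to 0.345), with the mouse gene at chr2:129528469-129541945. In the opossum, cells labelled L5PT held 1.06 (0.686 to 1.57), from 25 UMIs in 115 cells and between 0.737 and 1.39 in the 3 regions, IT_C held 0.462 (0.278 to 0.722), and Sst cells held 0.298 (0.120 to 0.614). Micro cells stood at 1.39 from 5 UMIs in 32 cells, with an interval of 0.453 to 3.25, and at 0.552 without region 2. The opossum level was 0.0717 (0.0233 to 0.167) in the sixth bin and 0.703 (0.526 to 0.919) in the eighth. Of the 53 Pdyn UMIs in the eighth bin 39 came from region 2, where it was at 1.215 (0.864 to 1.66), against 0.402 and 0.148 in regions 1 and 3. Without region 2 it was 0.323 (0.177 to 0.542), and without region 1 the sixth bin was at 0.0459. The highest bin was the ninth in region 1, at 0.628, and the seventh in region 3, at 0.4215. In the mouse, Sst cells were highest at 1.69 (1.21 to 2.29), from 41 UMIs in 169 cells, between 0.783 and 2.70 in the 4 regions. L5PT was at 0.220 (0.110 to 0.394) there. The mouse peak was the fifth bin, 0.840 (0.685 to 1.02), with 0.101 (0.0564 to 0.166) in the ninth.

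Adcyap1 encodes PACAP, a relative of Vip that acts on the receptor Adcyap1r1 and, with Vip, on Vipr1 and Vipr2. It had 950 UMIs in opossum V1, 1.37 per 10000 (1.28 to 1.46), and 159 in mouse V1, 0.127 (0.108 to 0.148). In the opossum, IT_C held 2.53 (2.07 to 3.07), Endo 2.21 (1.24 to 3.64), IT_B 2.12 (1.55 to 2.84) and the 15 Lamp5 cells 2.28 (0.621 to 5.84), from 4 UMIs and 3.76 without region 1, all overlapping, while IT_A held 1.22 (1.08 to 1.37) and L6CT 0.732 (0.574 to 0.920). Its level rose to 2.24 (1.90 to 2.62) in the sixth and 2.28 (1.95 to 2.65) in the seventh bin and was 0.314 (0.203 to 0.464) at the bottom. In the mouse, where the gene lies at chr17:93506397-93515189 and overlaps a lncRNA on the opposite strand, L5PT at 0.2004 (0.0961 to 0.369) and L4 at 0.152 (0.107 to 0.208) were not apart, and the bins ran from 0.0454 (0.0167 to 0.0988) at the bottom, 0.0299 without region 4, to 0.205 (0.134 to 0.301) in the sixth.

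**Figure D5:**
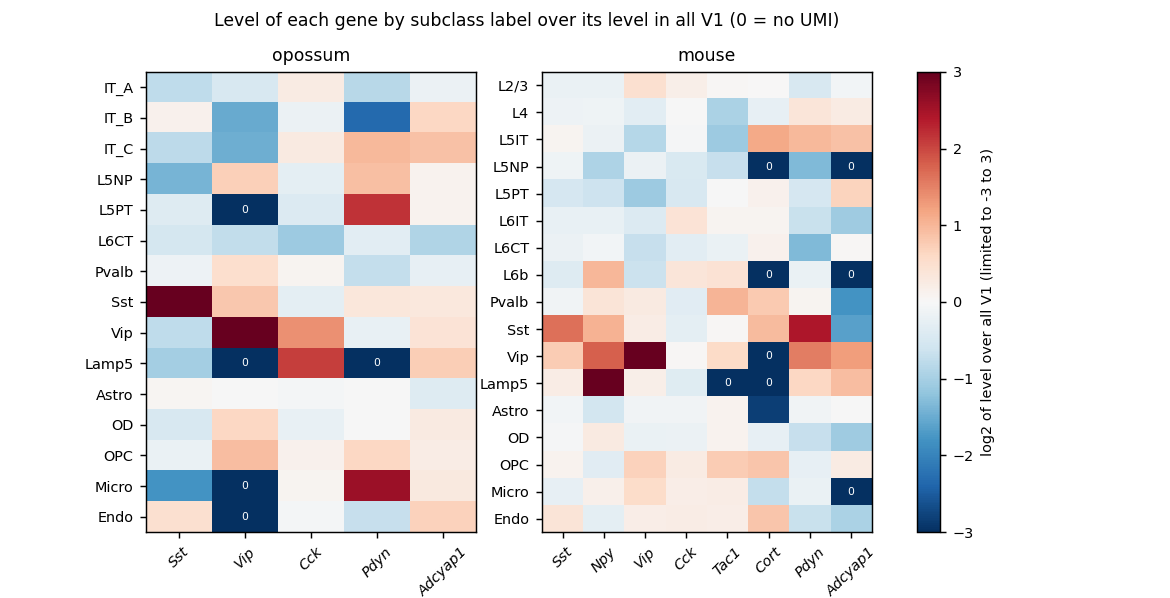
Level of each gene in the cells of each subclass label over its level in all V1 cells of the species, on a log2 colour scale cut at the same distance from 0 on both sides (red higher, blue lower, 0 printed where no UMI was found); opossum Npy, with 11 UMIs, is left out. Opossum Sst was at 50.3 and mouse Sst at 12.3 per 10000 in the cells labelled Sst, and Pdyn was high in opossum L5PT and in mouse Sst cells.

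Set against all genes with at least 100 V1 UMIs, 2 of 5 opossum members, Sst and Vip, were at least 2-fold higher in GABAergic than in glutamatergic cells, where 3.07% of 8846 genes were. In the mouse, 4 of 8 members were, Npy, Vip, Tac1 and Pdyn, where 1.83% of 11402 genes were. Mouse Pdyn had the highest ratio there, 3.32 (2.49 to 4.37), and opossum Pdyn stood at 0.5995 (0.254 to 1.22). That of opossum Vip was 2.07 (1.31 to 3.15), and between 0 and 3.33 in the 3 regions. The median ratio over all genes tested was 0.979 in the opossum and 0.992 in the mouse. Where GABAergic cells were taken as those with at least 1 UMI of Gad1, Gad2 or Slc32a1, in place of the label, no member was past 2-fold in either species. Without opossum region 1 or region 2, Sst alone remained past 2-fold.

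The mean depth of the UMIs was at least 0.05 nearer the top than that of all UMIs for 2 of 5 opossum members, where 8.68% of genes were, and for 1 of 8 mouse members, where 6.96% were. These were Vip, at 0.409, and Cck, at 0.428, against 0.493 for all UMIs of the opossum, and Vip, at 0.384 against 0.488, in the mouse. All 3 opossum regions and all 4 mouse regions had Vip and Cck nearer the top than all UMIs. Opossum Pdyn, at 0.648, was at least 0.05 deeper, where 8.82% of genes were, and did so in all 3 regions. None of the 8 mouse members was, where 5.69% of genes were, and mouse Pdyn lay at 0.442, nearer the top in all 4 regions.

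V1 was compared with the other cells of the section, 74531 in the opossum and 110881 in the mouse. These were unlike tissue in the 2 species. Per the methods, the opossum slices were trimmed beside and below V1 before embedding, and the mouse slices were not. Opossum Sst was the only member at least 2-fold higher in V1, with 5.80 against 2.86 (2.83 to 2.90) elsewhere, where 1.53% of genes were past 2-fold. The ratio, 2.03 (1.96 to 2.10), was between 1.90 and 2.18 in the 3 regions, and without region 1 or region 3 it was just under 2-fold, at 1.99 each. Mouse Sst was lower in V1, 3.92 against 4.96 (4.93 to 5.001), with ratios of 0.717 to 0.910 in the 4 regions. None of the 8 mouse members was past 2-fold, where 0.325% of genes were. Opossum Cck had a ratio of 1.62 (1.57 to 1.67) and mouse Pdyn 1.60 (1.43 to 1.78), and the other tested members lay between 0.709 and 1.29.

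The peptides could also be set against each other within cells. Mouse cells with 3 or more Sst UMIs, 488 in number, had 0.689 Pdyn UMIs per 10000 (0.525 to 0.889) and 2.00 of Npy (1.71 to 2.32), against 0.240 (0.208 to 0.276) and 0.881 (0.818 to 0.948) in cells with none. Their Vip level, 0.386 (0.265 to 0.541), and Cck level, 4.80 (4.35 to 5.29), were not above those of the cells with none, 0.473 and 5.32. In the opossum, the 387 cells with 3 or more Sst UMIs had 0.170 of Pdyn (0.0848 to 0.304) against 0.241 (0.199 to 0.290), and 5.30 of Cck (4.75 to 5.89) against 6.27 (6.05 to 6.50). The 115 opossum cells with a Vip UMI had 11.1 of Cck (9.62 to 12.7), against 5.95 (5.77 to 6.14) in the other cells, a ratio of 1.86 (1.61 to 2.13). For the 396 mouse cells with a Vip UMI the ratio was 1.09 (0.9704 to 1.21).

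Of the 15 receptor genes of these peptides, 12 were found for the opossum and all for the mouse, of which 4 and 6 had at least 100 V1 UMIs. None was 2-fold higher in GABAergic cells, where 3.07% of opossum and 1.83% of mouse genes were. Sstr1 at 0.163 (0.134 to 0.196) and Sstr4 at 0.226 (0.192 to 0.265), both somatostatin receptors, were past 100 UMIs in the opossum alone, where both lay at least 0.05 nearer the top, as did 8.68% of genes. Sstr2 at 0.215 (0.190 to 0.242) and Sstr3 at 0.278 (0.2495 to 0.309) were past it in the mouse alone, where Sstr2 lay at least 0.05 deeper, as did 5.69% of genes. Vipr2, shared by Vip and PACAP, held 815 UMIs in the opossum, 1.18 (1.10 to 1.26), and was highest in IT_C, at 1.90, while in the mouse it held 12, and Vipr1 held 466, 0.372 (0.339 to 0.408). Cckbr, the cholecystokinin receptor of the cortex, was at 0.169 (0.140 to 0.202) in the opossum and 0.625 (0.582 to 0.671) in the mouse. Npy1r, a receptor of neuropeptide Y, was at 0.307 (0.278 to 0.340) in the mouse and lay at least 0.05 nearer the top, as did 6.96% of genes. Oprk1, the dynorphin receptor, held 79 and 15 UMIs. Median GABAergic to glutamatergic ratios over those tested were 0.466 in the opossum and 0.804 in the mouse.

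Of 11 genes of peptide processing and dense-core vesicles, all of the 8 found in the opossum and all 11 found in the mouse had at least 100 UMIs, and none was 2-fold higher in GABAergic cells, where 3.07% and 1.83% of genes were. Cpe, the carboxypeptidase that trims peptide ends, had the highest level of these genes, at 17.2 (16.9 to 17.5) and 11.6 (11.5 to 11.8). Scg2, a granin of dense-core vesicles, was highest in Sst cells of the opossum, at 6.81, and in L6b cells of the mouse, at 4.36. In the opossum 2 of the 8, Pcsk1 and Scg2, lay at least 0.05 nearer the top, where 8.68% of genes did, and 1, Scg3, deeper, where 8.82% did. In the mouse 1 of the 11, Pam, which amidates peptides, lay nearer the top, where 6.96% did. Pcsk1, a convertase that cuts precursors, was at 0.971 (0.899 to 1.047) in the opossum and 0.563 (0.522 to 0.606) in the mouse.

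The genes most like each member across subclass labels were sought by Pearson's r of log2 levels, over 14 opossum and 17 mouse subclasses, which share the section and the labels. The 3 highest of 6554 opossum and 9092 mouse genes are named. For opossum Sst these were RELN, at 0.91, INPP4B, at 0.80, and SOX6, at 0.78. For mouse Sst they were Pdyn, at 0.81, Oat, at 0.71, and Bcl2l13, at 0.69. Sst itself was far higher in 1 subclass in the opossum, at 50.3 in Sst cells and 8.09 in Endo, the next. Mouse Npy was most like Gad2, at 0.92, which encodes an enzyme that makes GABA, and then Neu1 and Ier3ip1. Mouse Pdyn was most like Scg5, at 0.85, with Sst next and Galntl6 after it. Opossum Cck was most like EPHX4, BEGAIN and NT5DC3, from 0.80 to 0.87, and mouse Cck like Slc27a4, A830082K12Rik and Lman2l, from 0.70 to 0.72. Opossum Adcyap1 was most like NTNG2, RBM5 and OSBP2, from 0.70 to 0.73. For opossum Vip (AFF4, ORC4, MPRIP) and Pdyn (ATG4B, LMO4, VTA1), and for mouse Vip (Hyou1, Nr1d2, Actr1b), Tac1 (Trim44, Gm11716, Taok3), Cort (D6Wsu163e, Zswim1, Slc17a5) and Adcyap1 (Tmem201, Nf1, Trim9), r lay between 0.80 and 0.93, and several subclasses held few or no UMIs of the member.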

How the data were processed

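Each section was 10 µm thick, from blocks with RNA integrity numbers of 7.1 (opossum) and above 9 (mouse). Per the methods, the authors used the Stereo-seq Analysis Workflow, aligning tissue by hand, with a custom opossum genome whose 3′ ends were extended and with GRCm39 for the mouse. What they deposited were UMI counts per gene and segmented cell, without normalization. Class and subclass labels came from their nearest-neighbor classification against snRNA-seq atlases, in 3 rounds. Here, counts were read with pandas 2.3.3 and scipy 1.17.1 under Python 3.11.15, with numpy 2.4.6 for sums, shapely 2.1.2 for V1 rectangles and matplotlib 3.10.9 for plots. Cells needed 50 genes and 100 UMIs. Depth was the position along the axis of the smallest rectangle around each V1 region, oriented by IT_A or L2/3 and L6CT. Mean depth scaled each cell to 10000 UMIs. Subclasses needed 25 V1 cells, and Lamp5 and Vip were kept where smaller. Most alike genes had at least 200 V1 UMIs, with 0.1 added before log2. Measures were tested on simulated data. No p-value was computed. The members and lists were chosen with earlier results of these data known. The named genes are the members, their receptors, processing genes and the 3 most alike per member. Doublets were not called. 1 marker of the GABAergic list is not reported here, and its summed level leaves it out. Mouse coordinates and letters come from the GENCODE annotation of GRCm39.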

Additional observations from a re-analysis of the deposited data

Results flagged for a closer look

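For 3 genes, picked because they differed, the 2 species pointed opposite ways in every V1 region. Among 5813 genes matched by symbol with at least 100 V1 UMIs in both sections, 3.39% did so by depth, with 2 of the 5 members, and 8.45% by V1 against the rest of the section, with 1 of the 5. Pdyn UMIs lay deeper than all UMIs in the opossum, by 0.155 of the depth of the V1 regions (0.0784 to 0.210 in the 3 regions), and nearer the top in the mouse, with a difference of -0.0459 (-0.0610 to -0.0271 in the 4 regions). Adcyap1 differed from all UMIs by 0.0150 in the opossum (0.00202 to 0.0243) and by -0.0405 in the mouse (-0.104 to -0.0216). The opossum Adcyap1 value is small, since 34.07% of genes lay deeper. The mouse value was -0.104 in region 3, against -0.0237, -0.0216 and -0.0239 in regions 1, 2 and 4. By depth bin the species were alike for Adcyap1, with 2.24 in the opossum and 0.205 in the mouse in the sixth bin. Both were lowest in the tenth, at 0.314 and 0.0454. Sst was higher in V1 than in the rest of the opossum section, 2.03 times, and lower in the mouse, 0.790 times. That rest was unlike tissue in the 2 species, since only the opossum slices were trimmed around V1. With 1 section per species none of these differences was tested.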

How the results depend on the processing

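No paired analysis was possible because each species has 1 section. Among opossum members at least 2-fold higher in GABAergic cells, 2 with the labels, the count was 1, Sst alone, after thinning to 300 UMIs, as the mean over cells, without the 5 cells with the most UMIs, without V1 region 1 and without V1 region 2; it was 0 with cells classed by Gad1, Gad2 or Slc32a1, as it was for the 4 mouse members. Mouse Tac1 had a log2 ratio of -0.74 after thinning in place of 1.18. The 2 opossum members nearer the top were 1, Cck, with plain UMIs. The 1 mouse member nearer the top, Vip, became 2 with a filter of 200 genes and 300 UMIs (Adcyap1 added), with plain UMIs (Pdyn), without V1 region 1 (Adcyap1) and without V1 region 3 (Pdyn), and 3 after thinning (both). The 1 opossum member 2-fold higher in V1, Sst, fell to 0 without V1 region 1 or region 3, settings chosen after seeing the data. Opossum Pdyn was past 0.05 deeper in all 9 alternatives, and opossum Sst past 2-fold in GABAergic cells in all 10 but the class by Gad1, Gad2 or Slc32a1, where its ratio was 1.71. With first-round labels mouse Vip had 1.48. After thinning, the top 1% of cells held 32.7% of opossum and 21.7% of mouse Sst UMIs, and without thinning the top 5% held 57.9% and 39.4%. The ratio of opossum Sst at depths of 0.3 to 0.6 over the rest of V1 ran from 2.55 without cells of 5 or more Sst UMIs to 5.63 without V1 region 1. In the mouse it was 1.06 without such cells. Levels by depth bin, class and subclass without each V1 region, added after seeing the data, stand beside the values they moved by over 1.5 times. Depth limits Vip, Cort, Tac1, Pdyn and mouse Adcyap1, where a level near that of 1 UMI cannot be ranked, and the causes of these changes were not tested.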
